A study of Mus musculus with 12 samples.

Results

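The Rab GTPases of mouse were followed through RNA sequencing of conventional dendritic cells (cDCs) sorted from the spleen. Members were the protein-coding entries of the deposited expression table whose symbol is Rab, a number and at most a letter and a further digit. This rule used names and no measured value, and it gave 59 genes of 55322 entries in the table, 21821 of them protein-coding. Of the 59 genes, 43 reached 1 FPKM (fragments mapped to a gene, scaled to its length and to the size of the library) in at least 3 of 12 libraries and were tested, and the other 16 were below that level.

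There were 4 groups of 3 libraries each, of which L-cDC1 and L-cDC2 carry the letter L in their titles and M-cDC1 and M-cDC2 the letter M. The series title speaks of cDCs of lymphoid origin, and the sample titles do not spell out the letters L and M. All 12 libraries carry the same genotype label, Il7r-cre; Rosa26-lsl-tdTomato, a Cre expressed from the interleukin-7 receptor locus together with a red reporter that Cre switches on, while the growth protocol and the design text give naïve C57BL/6J mice as WT. The mice were 7 to 8 weeks old, no treatment is labelled, and sorting on the reporter is not assigned to particular libraries. Whether numbered libraries came from different mice is not labelled either, so every p-value rests on sample-to-sample spread that may be only technical. In such bulk samples, fewer cells of a type and less RNA per cell cannot be told apart.

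Rab proteins are small GTPases that switch between a GTP-bound form on membranes and a GDP-bound form. Exchange factors (GEFs) load GTP, GTPase-activating proteins (GAPs) end the active state, Rab escort and GDP dissociation inhibitor proteins carry the lipid-tailed protein through the cytosol, and effectors are what the active form recruits. Each Rab marks particular organelles, from the endoplasmic reticulum (ER) and Golgi to early, recycling and late endosomes. In dendritic cells they direct phagosomes and the traffic of MHC molecules, and cDC1 are known for presenting taken-up antigen on MHC class I (cross-presentation) while cDC2 are known for presentation on MHC class II.

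Reads per library, recovered from FPKM times gene length, totalled 15879864 to 24498235. Correlations of log2(FPKM + 1) between libraries of a group were 0.958 to 0.979. The summed FPKM of 7 cDC1 marker genes was 1415 to 1509 in L-cDC1, 1425 to 1467 in M-cDC1, 154 to 159 in L-cDC2 and 150 to 158 in M-cDC2, and that of 7 cDC2 marker genes was 10.4 to 13.6, 11.4 to 13.3, 682 to 792 and 806 to 931 in that order of groups, so each library carried the markers of its labelled subset. The sum of 5 erythroid and platelet genes was 26.1 to 42 in L-cDC1 and 17.1 to 21.4 in M-cDC1, against 0 to 1.85 in L-cDC2 and 0.305 to 5.4 in M-cDC2. The sum of 9 T and NK cell markers was 11.1 to 18.1 in L-cDC1 against 34.6 to 97.9 in L-cDC2, and that of 6 monocyte and macrophage markers was 577 to 642 in L-cDC1 against 691 to 851 in L-cDC2 and 703 to 736 in M-cDC1 against 1438 to 1655 in M-cDC2. The part of these markers in the cDC1 to cDC2 differences below was not tested.

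Promoters are shown for 4 members, because Rab32 and Rab39 were among the called genes with the largest differences between cDC subsets, and Rab21 and Rab5a share a rare motif. RefSeq (GRCm38.p6) gave a promoter of 250 bases before and 50 bases after the start for 48 of the 59 genes. Printed are the 250 bases before the start, 5′ to 3′ on the gene's strand, for Rab32 (chr10:10558208-10558457, minus strand), Rab39 (chr9:53706233-53706482, minus strand), Rab21 (chr10:115315592-115315841, minus strand) and Rab5a (chr17:53478984-53479233, plus strand). Capitals mark the Ets core GGAAGT in Rab32 and, in Rab21 and Rab5a, the CLEAR-type E-box, a 10-base palindrome with CACGTG at its centre. The Rab39 stretch holds neither and has no capitals.
Rab32: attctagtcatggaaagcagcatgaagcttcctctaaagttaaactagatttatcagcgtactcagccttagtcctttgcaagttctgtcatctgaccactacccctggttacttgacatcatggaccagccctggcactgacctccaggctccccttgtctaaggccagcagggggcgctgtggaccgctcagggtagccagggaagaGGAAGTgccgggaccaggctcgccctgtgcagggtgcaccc
Rab39: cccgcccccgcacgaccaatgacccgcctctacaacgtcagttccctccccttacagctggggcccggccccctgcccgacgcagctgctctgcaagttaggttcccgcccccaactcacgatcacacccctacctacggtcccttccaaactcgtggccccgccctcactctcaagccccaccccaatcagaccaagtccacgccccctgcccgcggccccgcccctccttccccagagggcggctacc
Rab21: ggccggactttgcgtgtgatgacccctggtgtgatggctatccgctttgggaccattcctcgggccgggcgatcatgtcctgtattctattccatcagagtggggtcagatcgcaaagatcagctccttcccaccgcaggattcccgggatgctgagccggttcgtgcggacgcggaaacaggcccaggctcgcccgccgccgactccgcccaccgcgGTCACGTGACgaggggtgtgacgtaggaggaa
Rab5a: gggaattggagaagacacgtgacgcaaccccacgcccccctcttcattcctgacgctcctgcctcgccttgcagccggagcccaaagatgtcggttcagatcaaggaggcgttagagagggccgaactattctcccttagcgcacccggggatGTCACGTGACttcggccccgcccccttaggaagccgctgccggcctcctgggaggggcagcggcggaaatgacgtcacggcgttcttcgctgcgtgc

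The CLEAR-type E-box, searched on both strands over the full 300-base windows, stood in 3 of 48 Rab genes (6.25%), Rab5a, Rab21 and Rab24, against 0.37% of all genes with a promoter. In Rab21 there are 22 bases between the motif and the start, and in Rab5a 87. In Rab24 the copy lay after the start and is not in the printed range. The shorter E-box CACGTG, which the CLEAR-type E-box contains, stood in 6 of 48 (12.5%) against 8.09% of all genes, and GGAAGT in 13 of 48 (27.1%) against 26.5%. The same search covered an Ets-Irf composite motif, the core of the interferon-stimulated response element and the AP-1 motif, all rarer in Rab genes. They stood in 2.08%, 2.08% and 6.25% of Rab genes, against 3.16%, 3.99% and 8.97% of all genes, in that order. The CLEAR-type E-box is therefore the most enriched of several motifs searched, and its excess was not tested. A match is a run of letters and not evidence of binding. The 3 genes with the CLEAR-type E-box did not share a pattern of expression. Rab21 and Rab24 were lower in cDC1 than in cDC2, and Rab5a passed the test in neither comparison of the subsets. The Rab24 values carry a limit given below, since 62.4% of its exon bases overlap Prelid1.

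The summed FPKM of the Rab genes was higher in cDC1 than in cDC2, and most of that gap came from Rab7b and Rab32. Their summed level was 1380 ± 80.6 FPKM across L-cDC1 and 1395 ± 36.2 across M-cDC1, against 945.7 ± 17.3 across L-cDC2 and 980.1 ± 34.4 across M-cDC2 (SD, n = 3 each), or 0.391%, 0.377%, 0.286% and 0.29% of all FPKM. By library the sums were 1471, 1353 and 1317 FPKM in L-cDC1 and 1412, 1419 and 1353 in M-cDC1, against 928.5, 945.5 and 963.2 in L-cDC2 and 945.8, 1015 and 980 in M-cDC2, so that no cDC1 library came as low as a cDC2 library. Without Rab7b and Rab32, the other 57 genes summed to 951.1 ± 44.2 FPKM across L-cDC1 and 966.1 ± 26.9 across M-cDC1, against 902.2 ± 14.8 across L-cDC2 and 914.9 ± 32.9 across M-cDC2 (SD, n = 3 each), and the libraries overlapped within M. With 3 libraries against 3, an exact two-sided permutation test cannot go below p = 0.1. By class of known role, late endosome and lysosome members summed to 373 ± 14.1 FPKM across L-cDC1 and 384 ± 15.2 across M-cDC1, against 189 ± 4.81 across L-cDC2 and 208 ± 23.1 across M-cDC2 (SD, n = 3 each). Secretory and lysosome-related members summed to 258 ± 29.8 FPKM across L-cDC1 and 257 ± 14.5 across M-cDC1, against 74.2 ± 7.05 across L-cDC2 and 94.6 ± 4.52 across M-cDC2 (SD, n = 3 each). Each of these class gaps was that of 1 gene. Without Rab7b the late endosome and lysosome class summed to 183 FPKM in L-cDC1 against 187.6 in L-cDC2, and to 191.9 in M-cDC1 against 204.2 in M-cDC2. Without Rab32 the secretory and lysosome-related class was lower in cDC1, at 19.33 FPKM in L-cDC1 against 32.37 in L-cDC2 and 20.46 in M-cDC1 against 32.89 in M-cDC2. ER and Golgi members summed to 314 ± 14.4 FPKM across L-cDC1 and 306 ± 10.1 across M-cDC1, against 265 ± 5.94 across L-cDC2 and 251 ± 12.9 across M-cDC2 (SD, n = 3 each). The recycling and exocytosis sums overlapped across subsets within L and within M. The early endosome sums overlapped within L and were 65.64 to 69 FPKM in M-cDC1 against 76.66 to 87.01 in M-cDC2.

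By mean level over 12 libraries the leading genes were Rab32, Rab7, Rab1b, Rab7b and Rab8a, and the order depended on the subset. In both cDC1 groups Rab32 and Rab7b came first and second, ahead of Rab1b and Rab7. In L-cDC2 the order was Rab8a, Rab7, Rab1b, Rab8b, Rab2a, and in M-cDC2 it was Rab7, Rab8a, Rab1b, Rab8b, Rab2a. Neighbours in these orders often overlapped: Rab7 had 117, 119 and 117 FPKM in L-cDC1, and Rab1b had 124, 107 and 141 there. The top 5 genes of each group held 54.6% of the Rab FPKM in L-cDC1, 54.6% in M-cDC1, 47.4% in L-cDC2 and 46.8% in M-cDC2. A mean of at least 1 FPKM was reached by 38 members in L-cDC1, 39 in M-cDC1, 42 in L-cDC2 and 41 in M-cDC2.

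**Figure D1:**
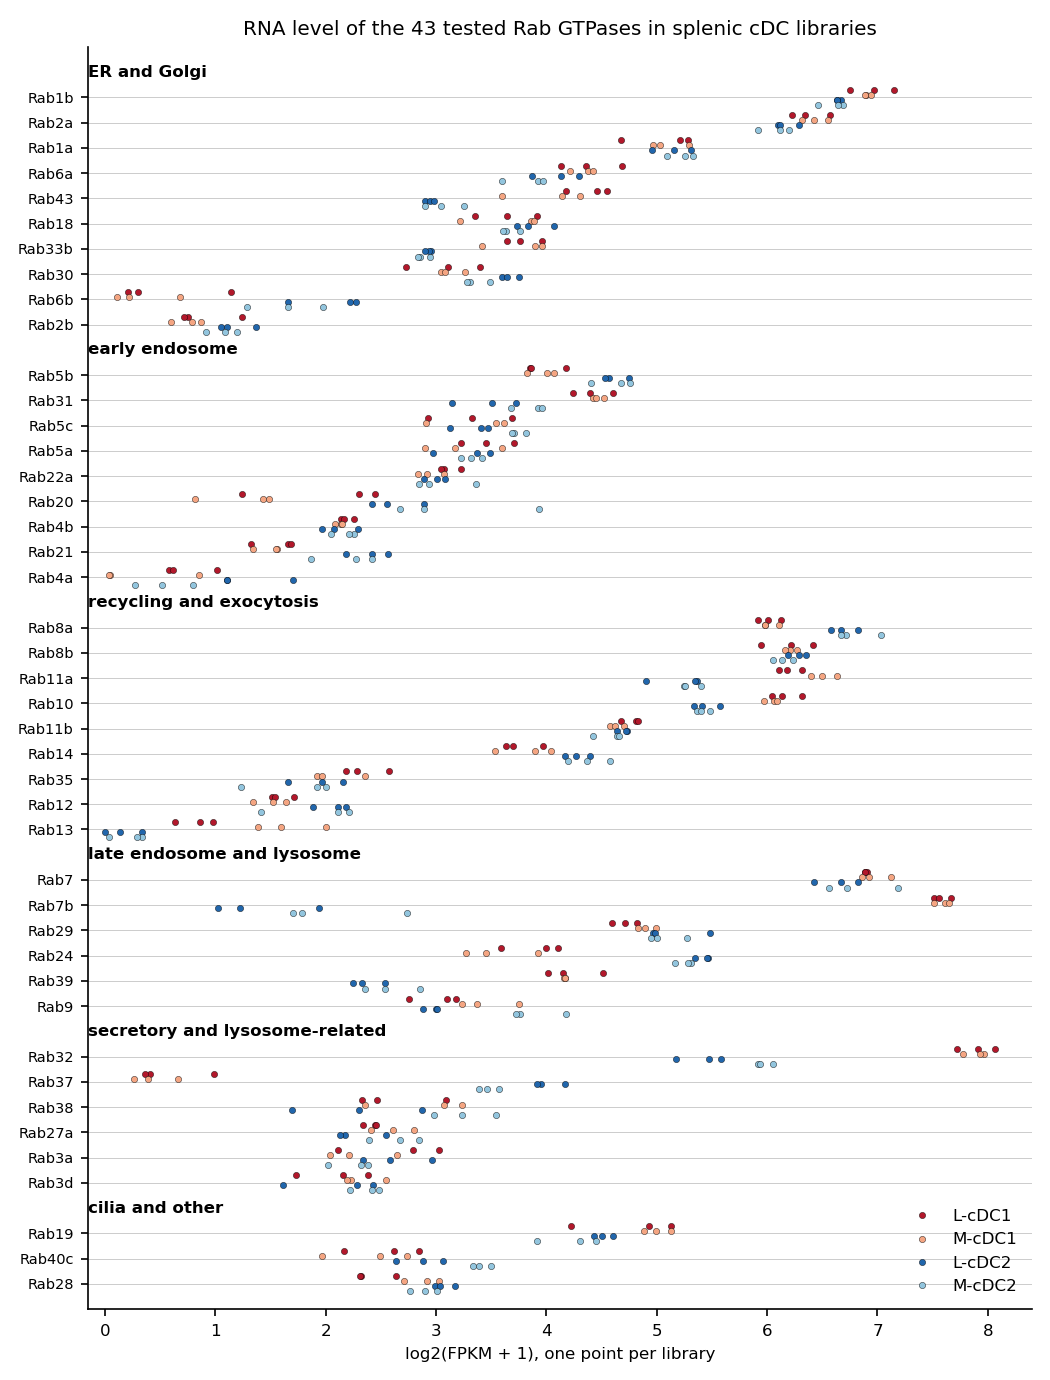
Level of each of the 43 tested Rab genes as log2(FPKM + 1) on the horizontal axis, with 1 point per library, coloured by group, and genes sorted by mean within 6 classes of known role. Rab7b and Rab32 lie far to the right in cDC1 (mean 190 and 239 FPKM in L-cDC1) and Rab37 lies to the right in cDC2 (mean 15.2 FPKM in L-cDC2), while the points of most other genes lie close together.

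The 16 untested members were Rab9b, Rab15, Rab17, Rab23, Rab25, Rab26, Rab3b, Rab3c, Rab27b, Rab33a, Rab34, Rab36, Rab39b, Rab40b, Rab42 and Rab44. Rab3b and Rab9b were listed at 0 in all 12 libraries. Rab27b had 1 read, Rab44 had 3 and Rab3c had 7 over all libraries, so the Rab3 and Rab27 families were read almost wholly from Rab3a, Rab3d and Rab27a. Rab34, which places lysosomes and acts in phagosome maturation, had 0.421, 0.505 and 0.526 FPKM in L-cDC1 and 0.467, 0.0938 and 0.115 in M-cDC1, against 0, 0 and 0.37 in L-cDC2 and 0.308, 0.185 and 0.0216 in M-cDC2. These are 145 reads in 12 libraries, and no library reached the 1 FPKM that the filter asks for.

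The comparison of cDC1 with cDC2 asks how the subsets differ in Rab genes, and it was made within the L and within the M libraries, which share no library. Differences are on the log2(FPKM + 1) scale, on which changes of low genes come out too small, and a gene is called where limma's Benjamini-Hochberg adjusted p over all 12434 genes tested was under 0.05. Within L, 20 of 43 Rab genes (46.5%) were called, 10 higher and 10 lower in L-cDC1, against 39.5% of all genes tested, of which 12.9% higher and 26.6% lower. Within M, 22 of 43 (51.2%) were called, 13 higher and 9 lower in M-cDC1, against 38.1% of all genes, of which 12.7% higher and 25.4% lower. The groups did not overlap for 12 Rab genes higher and 12 lower within L, against 16% and 32.7% of all genes, and for 13 higher and 12 lower within M, against 16.9% and 34.2%. Without Rab13, for a reason given below, 12 were higher and 12 lower within M.

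Many genes differ between these subsets, so the number of called Rab genes is read against those shares, and the split depends on scaling. The median difference of all genes was −0.19 within L and −0.18 within M as deposited, −0.04 and −0.03 after median-of-ratios scaling and 0.02 and 0.04 after quantile normalization. The median over the 43 Rab genes was 0.05 within L and −0.04 within M as deposited, 0.22 and 0.11 after median-of-ratios scaling and 0.26 and 0.17 after quantile normalization. Relative to the median of all genes, the Rab median was therefore higher under each of the 3 scalings. Higher and lower calls were 10 and 10 within L as deposited, 13 and 7 after median-of-ratios scaling and 12 and 6 after quantile normalization. Within M they were 13 and 9, 13 and 8, and 13 and 7. Under each scaling the higher calls within M include Rab13, which is not read as a result there. The calls of all genes moved the same way: higher ones were 32.7% of all calls within L as deposited, 48.7% after median-of-ratios scaling and 52.6% after quantile normalization, while for Rab genes they were 50%, 65% and 66.7%. Within M they were 33.2%, 48.9% and 53.4% of all calls, and 59.1%, 61.9% and 65% of the Rab calls.

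The same 10 genes were called higher in cDC1 within L and within M, Rab7b, Rab32, Rab39, Rab43, Rab11a, Rab13, Rab33b, Rab31, Rab10 and Rab1b, and the same 7 were called lower, Rab37, Rab24, Rab6b, Rab8a, Rab21, Rab5b and Rab14. Rab28, Rab29 and Rab30 were called, all lower, within L and not within M. Rab2a, Rab6a and Rab19 (higher) and Rab20 and Rab40c (lower) were called within M and not within L. Rab13 passed the filter on low values only through its 3 M-cDC1 libraries, where it is high, so its call within M is not read as a result. Without it, 21 of 42 Rab genes were called within M, 12 higher and 9 lower in M-cDC1. No member was called in opposite directions, and 18 were called in neither comparison. Across the 43 genes the differences within L and within M had a Pearson r of 0.956, a description to which Rab7b alone adds a wide range.

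**Figure D2:**
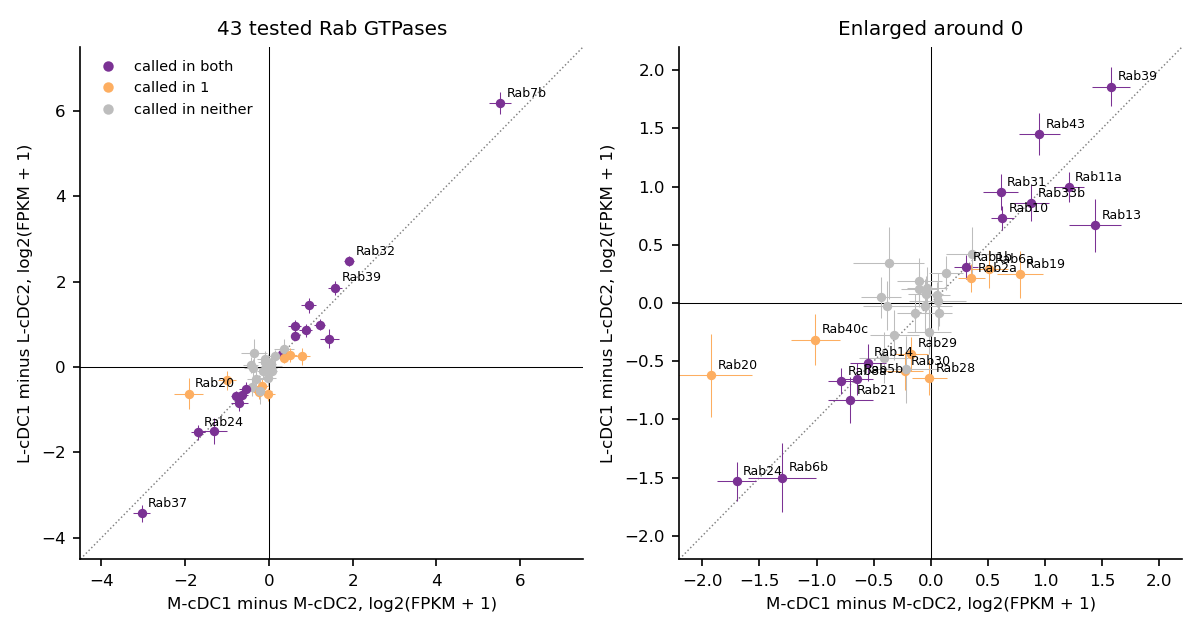
Difference of cDC1 minus cDC2 on the log2(FPKM + 1) scale within M (horizontal) and within L (vertical) for the 43 tested Rab genes, with bars of 1 SE and a dotted line of equality; the right panel enlarges the centre. Rab7b lies at 5.52 within M and 6.18 within L, Rab37 at −3.04 and −3.43, and no gene called in both lies on opposite sides of 0.

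The late endosome and lysosome members held the largest difference. Rab7b, which acts between late endosomes and the Golgi and lies on chromosome 1 (131616433 to 131643177 in the deposited table, whose build is not given in the sources used here), had 202, 182 and 187 FPKM in L-cDC1, against 2.83, 1.33 and 1.04 in L-cDC2. It had 182, 194 and 200 FPKM in M-cDC1, against 5.65, 2.44 and 2.27 in M-cDC2. All 6 cDC1 libraries were far above all 6 cDC2 libraries. The mean level was 110 times higher in L-cDC1 than in L-cDC2 (log2 difference 6.18 ± 0.26 SE, limma adjusted p = 2.8e-10) and 55.6 times higher in M-cDC1 than in M-cDC2 (5.52 ± 0.26, adjusted p = 8.69e-10).

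Rab7, which directs late endosomes and phagosomes to lysosomes, had 117, 119 and 117 FPKM in L-cDC1 and 115, 138 and 120 in M-cDC1, against 85, 101 and 112 in L-cDC2 and 93.7, 145 and 105 in M-cDC2. Its libraries did not overlap within L and overlapped within M, and neither difference passed the test (0.25, limma adjusted p = 0.189, within L and 0.14, adjusted p = 0.507, within M). Within L it was called higher in L-cDC1 after median-of-ratios scaling (0.45, limma adjusted p = 0.0294) and by limma-voom on recovered reads (0.46, adjusted p = 0.0185). The family therefore had a different make-up in each subset: Rab7b was 61.7% of the summed Rab7 and Rab7b FPKM across L-cDC1 and 60.7% across M-cDC1, against 1.81% in L-cDC2 and 3.15% in M-cDC2.

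Rab39, known for phagosome acidification and for cross-presentation in mouse dendritic cells, had 21.8, 16.8 and 15.2 FPKM in L-cDC1, against 3.74, 4.82 and 4.04 in L-cDC2. In M-cDC1 it had 17, 16.9 and 17 FPKM, against 4.82, 4.13 and 6.22 in M-cDC2. Every cDC1 library was above every cDC2 library, with mean levels 4.27 times higher within L (log2 difference 1.86 ± 0.16 SE, limma adjusted p = 7.55e-07) and 3.36 times higher within M (1.58 ± 0.16, adjusted p = 3.7e-06).

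Rab24, which acts in autophagy, went the other way, with 15, 11 and 16.2 FPKM in L-cDC1 against 43.1, 42.9 and 39.6 in L-cDC2. In M-cDC1 it had 14.2, 8.69 and 9.97 FPKM, against 38.8, 34.8 and 38 in M-cDC2. The groups were far apart in both comparisons (log2 difference −1.53 ± 0.17 SE, limma adjusted p = 6.86e-06, within L and −1.70 ± 0.17, adjusted p = 2.27e-06, within M). The library kit does not mark strand, and 62.4% of the exon bases of Rab24 overlap Prelid1 on the opposite strand (mean 67.6 FPKM over 12 libraries), so reads of these genes cannot be told apart. Rab29, which recruits the kinase Lrrk2 and lies 151.8 kb from Rab7b on chromosome 1, had 25.2, 27.3 and 23.1 FPKM in L-cDC1, against 43.7, 30.2 and 30.6 in L-cDC2, so that these neighbours differed in opposite directions within L. The Rab29 call (−0.43 ± 0.15 SE, limma adjusted p = 0.0305) ended without L-cDC2 replicate 1, the highest of its group (−0.27, adjusted p = 0.142), without L-cDC1 replicates 1 or 3 (adjusted p = 0.0612 and 0.0964) and under both other scalings (adjusted p = 0.217 and 0.124).

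Among secretory and lysosome-related members, Rab32 was the most abundant Rab gene of cDC1. Rab32, which builds lysosome-related organelles and lies on chromosome 10 (10420746 to 10434009), had 267, 239 and 210 FPKM in L-cDC1, against 35.2, 46.9 and 43.3 in L-cDC2. It had 249, 242 and 218 FPKM in M-cDC1, against 59.3, 65.6 and 60.2 in M-cDC2. The subsets did not overlap, and mean levels were 5.72 times higher in L-cDC1 than in L-cDC2 (log2 difference 2.49 ± 0.12 SE, limma adjusted p = 1.24e-09) and 3.83 times higher in M-cDC1 than in M-cDC2 (1.92 ± 0.12, adjusted p = 1.97e-08).

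Rab38, which builds melanosomes with Rab32, was far lower, with 7.51, 4.04 and 4.54 FPKM in L-cDC1 and 7.43, 4.12 and 8.43 in M-cDC1, against 2.24, 3.93 and 6.32 in L-cDC2 and 6.91, 8.43 and 10.7 in M-cDC2. Its cDC1 and cDC2 libraries overlapped and it was called in neither comparison. Rab27a, which docks lysosome-related organelles for secretion, had 4.46, 4.5 and 4.07 FPKM in L-cDC1 and 5.1, 4.33 and 5.98 in M-cDC1, against 3.53, 4.85 and 3.38 in L-cDC2 and 4.26, 6.19 and 5.4 in M-cDC2, with overlapping groups throughout. Rab3a and Rab3d, which dock secretory vesicles, had group means of 3.34 to 5.46 FPKM and were called in no comparison.

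Rab37, which acts on secretory granules and lies on chromosome 11 (114982257 to 115053062), was low in cDC1. It had 0.327, 0.986 and 0.284 FPKM in L-cDC1, against 14.5, 17 and 14.1 in L-cDC2. In M-cDC1 it had 0.309, 0.199 and 0.581 FPKM, against 9.46, 10.9 and 10 in M-cDC2. It reached 1 FPKM in no cDC1 library and passed the filter through the cDC2 libraries alone. The 3 M-cDC2 libraries would pass it for the comparison within L, and the 3 L-cDC2 libraries for that within M. Every cDC2 library was above every cDC1 library, and mean levels were 28.6 times higher in L-cDC2 than in L-cDC1 and 27.9 times higher in M-cDC2 than in M-cDC1 (log2 difference of cDC1 minus cDC2 −3.43 ± 0.20 SE, limma adjusted p = 7.74e-09, within L and −3.04 ± 0.20, adjusted p = 2.78e-08, within M).

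**Figure D3:**
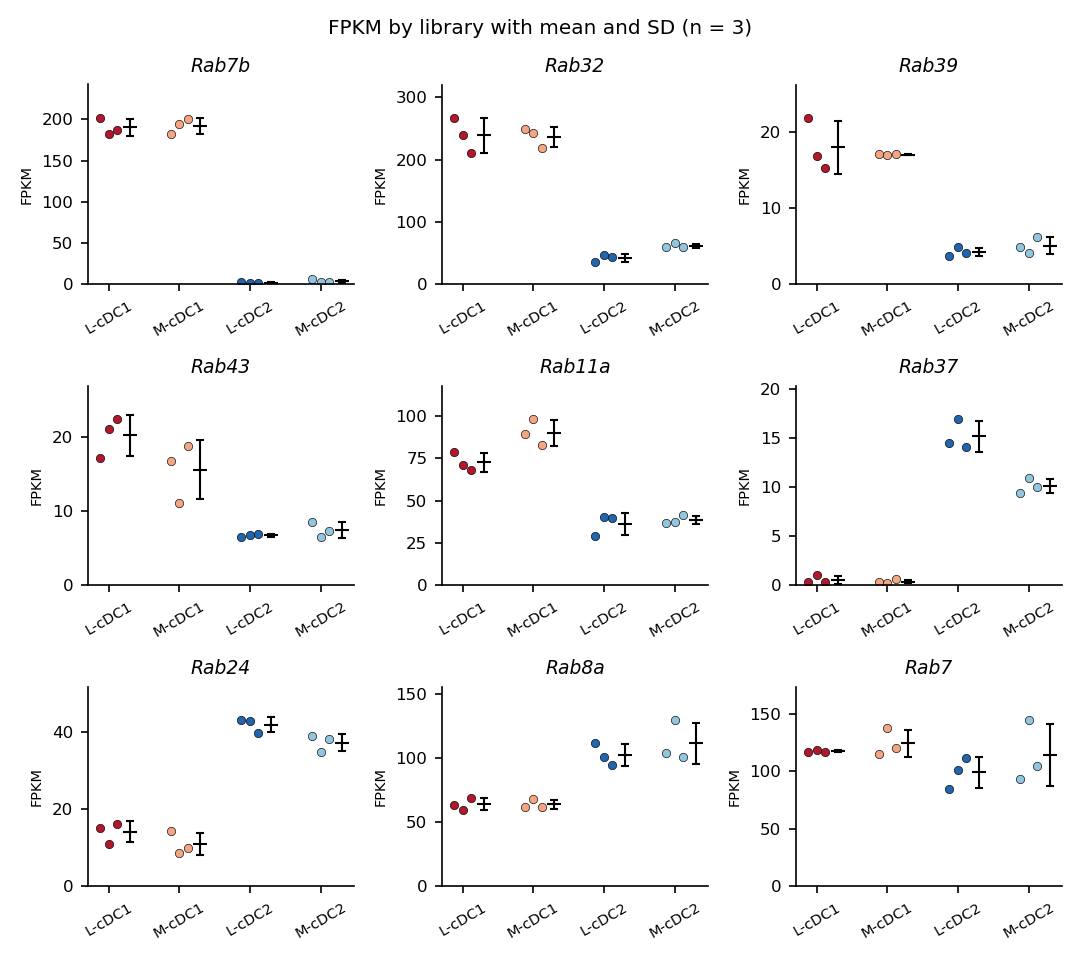
FPKM of 9 Rab genes in each of the 12 libraries, with the mean and SD of 3 libraries beside the points of each group and a vertical axis from 0 in every panel. Rab7b, Rab32, Rab39, Rab43 and Rab11a are higher in both cDC1 groups, Rab37, Rab24 and Rab8a are higher in both cDC2 groups, and Rab7 lies between 85 and 145 FPKM in all libraries.

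In the ER and Golgi class, 3 of 10 tested members were called higher and 2 lower within L, and 5 higher and 1 lower within M. These and the class counts that follow stand beside 12.9% higher and 26.6% lower of all genes within L and 12.7% and 25.4% within M. Rab43, a Golgi Rab needed in mouse cDC1 for cross-presentation of cell-associated antigen, lies on chromosome 6 (87765835 to 87789146), 186.9 kb from Rab7. It had 17.1, 21 and 22.4 FPKM in L-cDC1, against 6.49, 6.7 and 6.92 in L-cDC2. In M-cDC1 it had 16.7, 11.1 and 18.8 FPKM, against 8.55, 6.45 and 7.24 in M-cDC2. The subsets did not overlap (log2 difference 1.45 ± 0.18 SE, limma adjusted p = 2.07e-05, within L and 0.95 ± 0.18, adjusted p = 0.000848, within M). An entry on the same strand, Gm45140, with a mean of 0.608 FPKM, covers 75.4% of the Rab43 exon bases, and how reads in shared exons were assigned is not given in the sources used here.

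Rab33b, which acts at the Golgi and in autophagy, had group means of 12.9 ± 1.58 FPKM in L-cDC1 against 6.64 ± 0.14 in L-cDC2, and of 12.7 ± 2.65 in M-cDC1 against 6.36 ± 0.30 in M-cDC2 (SD, n = 3 each), and was called higher in both (0.86 within L and 0.88 within M). Rab1b, which carries vesicles from the ER to the Golgi, differed by 0.31 in both comparisons. It had 124, 107 and 141 FPKM in L-cDC1 and 118, 117 and 122 in M-cDC1, against 101, 98.4 and 98 in L-cDC2 and 102, 87.3 and 98.7 in M-cDC2. Its calls were close to the threshold (limma adjusted p = 0.0302 within L and 0.0311 within M) and ended in 7 of the alternative settings each, with adjusted p up to 0.126 without L-cDC1 replicate 3 and 0.112 without M-cDC2 replicate 2. Rab6b, known as the neuronal form of the Golgi Rab6, had 0.158, 0.23 and 1.21 FPKM in L-cDC1 against 3.65, 3.83 and 2.15 in L-cDC2, and 0.602, 0.167 and 0.0815 in M-cDC1 against 1.44, 2.94 and 2.16 in M-cDC2. It reached 1 FPKM in 1 L-cDC1 library and in the 3 libraries of each cDC2 group, so the cDC2 libraries, also those outside each comparison, brought it past the filter. It was called lower in cDC1 (−1.5 ± 0.30 SE, limma adjusted p = 0.0012, within L and −1.3 ± 0.30, adjusted p = 0.00332, within M) and made up 2.86% of Rab6a plus Rab6b FPKM across L-cDC1 and 1.43% across M-cDC1, against 16.3% in L-cDC2 and 13.9% in M-cDC2.

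Rab2a and Rab6a, which act between the ER and Golgi and out of the Golgi, were called higher within M and not within L (0.35, limma adjusted p = 0.0285, and 0.51, adjusted p = 0.0256). Rab2a had 93, 84.7 and 78.6 FPKM in M-cDC1 against 68.2, 59.4 and 72.6 in M-cDC2, and Rab6a had 19.8, 17.6 and 20.4 in M-cDC1 against 11.1, 14.2 and 14.7 in M-cDC2. No interaction was called for either, so the subset effect is not shown to differ between L and M. Both calls ended without M-cDC1 replicate 1 (adjusted p = 0.109 and 0.0687) and in other settings. Mrpl48 on the opposite strand (mean 6.81 FPKM over 12 libraries) overlaps 19% of the Rab6a exon bases, and reads there cannot be told apart. Rab30, which acts at the Golgi, was called lower within L (−0.59, adjusted p = 0.0112), a call that ended under both other scalings (adjusted p = 0.0667 and 0.103) and without L-cDC1 replicate 2 (0.0509).

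In the recycling and exocytosis class, 3 of 9 tested members were called higher and 2 lower in each comparison. The 3 higher within M include Rab13, whose call there is not read as a result, beside Rab11a and Rab10. Rab11a, which defines recycling endosomes, including those that hold MHC class I in mouse dendritic cells, had 78.8, 71.3 and 67.9 FPKM in L-cDC1, against 28.9, 40.2 and 39.6 in L-cDC2. In M-cDC1 it had 89.4, 98.5 and 83.2 FPKM, against 36.9, 37.2 and 41.3 in M-cDC2. All cDC1 libraries were above all cDC2 libraries, and mean levels were 2 times higher in L-cDC1 than in L-cDC2 (log2 difference 0.996 ± 0.128 SE, limma adjusted p = 3.03e-05) and 2.35 times higher in M-cDC1 than in M-cDC2 (1.21 ± 0.128, adjusted p = 4.72e-06). Its close relative Rab11b had group means of 22.9 to 26.4 FPKM and was called in neither comparison, so Rab11a was 73.4% of the family's FPKM across L-cDC1 and 78.9% across M-cDC1, against 58.7% in L-cDC2 and 62.7% in M-cDC2.

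Rab10, which carries cargo to the plasma membrane, had 78.7, 69.4 and 65.2 FPKM in L-cDC1 and 65.8, 67 and 61.7 in M-cDC1, against 39.5, 41.5 and 46.6 in L-cDC2 and 40.1, 41.2 and 43.7 in M-cDC2, and was called higher in both (0.73 and 0.63). Rab13, which carries cargo to cell junctions, was low throughout. It had 0.552, 0.818 and 0.977 FPKM in L-cDC1 and 2.03, 3.02 and 1.62 in M-cDC1, against 0, 0.0998 and 0.264 in L-cDC2 and 0.266, 0.0274 and 0.224 in M-cDC2 (log2 difference 0.67 ± 0.23 SE, limma adjusted p = 0.0326, within L and 1.44 within M). The M-cDC1 libraries alone brought it past the filter, so the difference within M is a description. The call within L ended without L-cDC1 replicates 2 or 3 and without L-cDC2 replicates 1 or 2 (adjusted p up to 0.0979).

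Rab8a, which also carries cargo to the plasma membrane, went the other way from Rab10. It had 63.5, 59.6 and 68.9 FPKM in L-cDC1, against 112, 101 and 94.9 in L-cDC2, and 62, 67.8 and 62 in M-cDC1, against 104, 130 and 101 in M-cDC2. The subsets did not overlap (log2 difference −0.67 ± 0.11 SE, limma adjusted p = 0.000302, within L and −0.79 ± 0.11, adjusted p = 8e-05, within M). Rab8b had 84.6, 73.3 and 60.6 FPKM in L-cDC1 and 76.4, 73 and 70.6 in M-cDC1, against 72.1, 77 and 80.7 in L-cDC2 and 69.5, 65.3 and 74.4 in M-cDC2, and was called in neither comparison, so the share of Rab8a in the pair was 47% in L-cDC1 and 46.6% in M-cDC1, against 57.2% in L-cDC2 and 61.3% in M-cDC2.

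Rab14, which acts between the Golgi and endosomes and on phagosomes, had 14.7, 12 and 11.4 FPKM in L-cDC1, against 17, 18.3 and 20.1 in L-cDC2, and 13.9, 15.5 and 10.6 in M-cDC1, against 17.3, 22.8 and 19.7 in M-cDC2. The groups did not overlap, and both differences were called as deposited (−0.51 ± 0.16 SE, limma adjusted p = 0.0191, within L and −0.55 ± 0.16, adjusted p = 0.0132, within M). Neither call held after median-of-ratios scaling (adjusted p = 0.124 and 0.089) or quantile normalization (0.113 and 0.101), and limma-voom on recovered reads did not call them (0.0815 and 0.0514). Leaving out L-cDC1 replicates 2 or 3 or L-cDC2 replicate 3 within L, or M-cDC1 replicate 3 or M-cDC2 replicate 2 within M, also ended the calls, with adjusted p up to 0.0701.

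**Figure D4:**
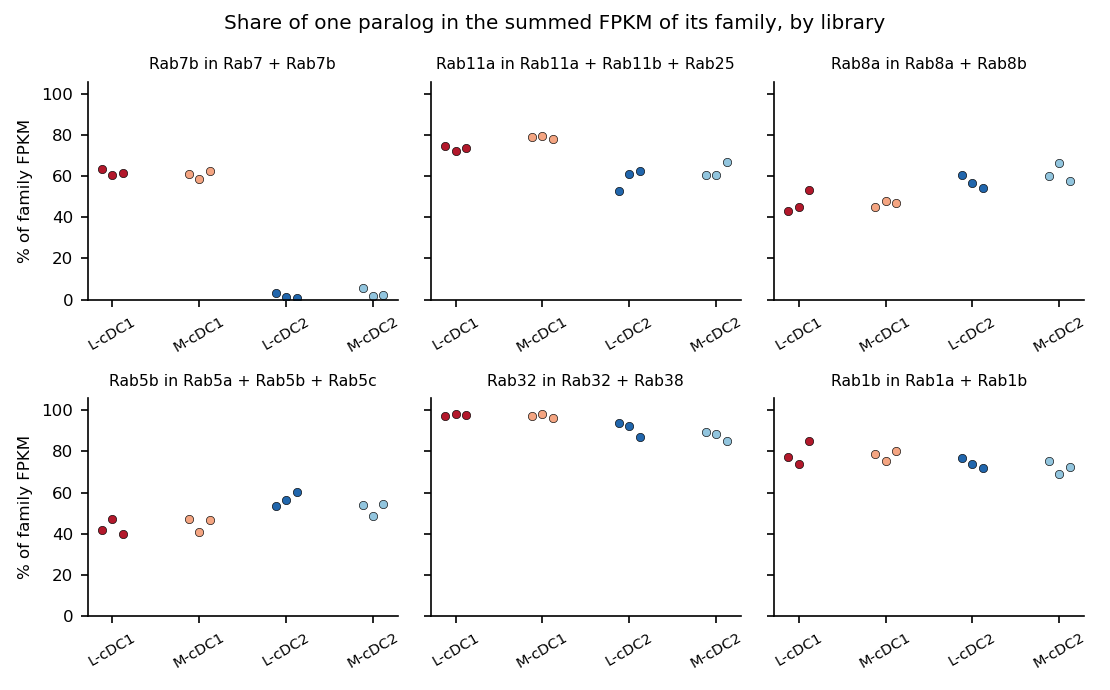
Share of 1 member in the summed FPKM of its close relatives, in percent, with 1 point per library and the 4 groups along the horizontal axis. Rab7b makes up 58.5% to 63.2% of Rab7 plus Rab7b in the cDC1 libraries and 0.914% to 5.69% in the cDC2 libraries, Rab11a is higher and Rab8a and Rab5b are lower on average in cDC1, and the Rab1b shares overlap.

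In the early endosome class, 1 of 9 tested members was called higher and 2 lower within L, and 1 higher and 3 lower within M. Rab31, which acts between the trans-Golgi and endosomes, was the one called higher, with 20, 23.3 and 17.9 FPKM in L-cDC1 against 12.2, 7.85 and 10.4 in L-cDC2, and 20.4, 20.9 and 22 in M-cDC1 against 11.8, 14.2 and 14.6 in M-cDC2 (0.95 and 0.61). Rab5b, which drives fusion of early endosomes, had 13.4, 17.1 and 13.5 FPKM in L-cDC1 against 22.7, 22.1 and 25.9 in L-cDC2, and 15.8, 13.2 and 15.1 in M-cDC1 against 24.6, 20.2 and 26.1 in M-cDC2. It was called lower in cDC1 in both (−0.65, limma adjusted p = 0.00179, within L and −0.64, adjusted p = 0.0021, within M). Its relative Rab5a had 12.1, 9.95 and 8.34 FPKM in L-cDC1 and 11.1, 8.03 and 6.45 in M-cDC1, against 10.2, 6.84 and 9.33 in L-cDC2 and 8.98, 8.36 and 9.66 in M-cDC2, with overlapping groups and no call.

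Rab21, which moves integrins through early endosomes and whose promoter is printed above, had 2.16, 2.22 and 1.51 FPKM in L-cDC1 against 3.55, 4.35 and 4.91 in L-cDC2, and 1.95, 1.93 and 1.53 in M-cDC1 against 2.64, 3.83 and 4.35 in M-cDC2. Both differences were called (−0.83, limma adjusted p = 0.00386, within L and −0.70, adjusted p = 0.0116, within M), and the call within M ended after quantile normalization (adjusted p = 0.124), with limma-voom on recovered reads (0.0519) and without M-cDC2 replicate 3 (0.0577). Rab22a, which acts in early and recycling endosomes, also those of MHC class I, had 7.4, 8.38 and 7.24 FPKM in L-cDC1 and 7.43, 6.15 and 6.58 in M-cDC1, against 7.07, 6.44 and 7.46 in L-cDC2 and 6.66, 9.27 and 6.2 in M-cDC2. Its groups overlapped and it was called in no comparison.

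Rab20, which acts on phagosomes and macropinosomes and is known to be induced by interferon gamma, had the largest of the differences called within M and not within L. It had 1.7, 0.764 and 1.8 FPKM in M-cDC1, against 5.37, 14.3 and 6.41 in M-cDC2, without overlap (−1.92 ± 0.36 SE, limma adjusted p = 0.000743). Within L it had 1.37, 4.47 and 3.94 FPKM in L-cDC1, against 4.37, 6.4 and 4.87 in L-cDC2, with overlap and no call (−0.62 ± 0.36, adjusted p = 0.184). The test of the difference between these effects did not pass (interaction 1.3 ± 0.50 SE, adjusted p = 0.466), so Rab20 is not shown to differ between L and M in its subset effect.

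Of the remaining members, Rab19, which acts in cilium formation, had 34, 28.5 and 30.9 FPKM in M-cDC1 against 20.8, 14.1 and 18.8 in M-cDC2 and was called higher (0.78, limma adjusted p = 0.00771), while within L it had 34.1, 17.7 and 29.5 FPKM in L-cDC1 against 21.7, 23.3 and 20.6 in L-cDC2 (0.25, adjusted p = 0.352). Without L-cDC1 replicate 2, the lowest of its group, the difference within L was called (0.52, adjusted p = 0.0243). Rab40c, which recruits a ubiquitin ligase through a SOCS box, had 5.68, 2.91 and 4.62 FPKM in M-cDC1 against 9.5, 9.1 and 10.3 in M-cDC2 (−1.01, adjusted p = 0.0023), and 3.5, 5.16 and 6.2 in L-cDC1 against 7.37, 5.22 and 6.38 in L-cDC2 (−0.31, adjusted p = 0.273). Rab28, which acts in cilia and photoreceptors, had 5.22, 4 and 3.98 FPKM in L-cDC1 against 8.03, 6.95 and 7.23 in L-cDC2 (−0.64, adjusted p = 0.00382), a call that ended after quantile normalization (0.064).

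The genes that act on Rab proteins were counted from 4 lists. Of 49 tested GEFs, 8 were higher and 14 lower in L-cDC1 than in L-cDC2 (44.9% called) and 7 were higher and 19 lower in M-cDC1 than in M-cDC2 (53.1%), beside 39.5% of all genes called within L and 38.1% within M, with medians of −0.30 and −0.28 beside −0.19 and −0.18 for all genes. Of 33 tested GAPs, 4 were higher and 12 lower within L and 4 higher and 16 lower within M (48.5% and 60.6% called), with medians of −0.25 and −0.39. Of 49 tested effectors, 1 was higher and 13 lower within L and 1 higher and 17 lower within M, with medians of −0.31 and −0.30. The effectors called were 28.6% within L, below the 39.5% of all genes, and 36.7% within M, close to the 38.1% of all genes. Of 10 genes for escort, dissociation inhibition and prenylation, 1 was higher and 3 lower within L and 0 were higher and 3 lower within M.

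These splits also moved with scaling. After median-of-ratios scaling, GEFs called higher and lower were 11 and 8 within L and 10 and 13 within M, GAPs 6 and 8 within L and 5 and 9 within M, and effectors 4 and 10 within L and 3 and 8 within M. After quantile normalization they were 10 and 7 within L and 11 and 10 within M for GEFs, 6 and 6 within L and 4 and 9 within M for GAPs, and 5 and 10 within L and 4 and 8 within M for effectors. Within L the GEFs therefore had more lower than higher calls as deposited and more higher than lower calls under both other scalings, while effectors had more lower calls under all 3. All genes shifted likewise within L, with 1605 higher and 3308 lower calls as deposited, 2250 and 2369 after median-of-ratios scaling and 2330 and 2098 after quantile normalization. Without 1 library, called GAPs within M were 13 to 20 in number, the lowest without M-cDC1 replicate 2 or without M-cDC2 replicate 1.

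The 5 regulators and effectors named next kept their direction and their call within L and within M under all 21 alternative settings. Dennd3, a DENN-domain GEF known to act on Rab12, averaged 3.74 ± 1.62 FPKM across L-cDC1 and 2.14 ± 1.03 across M-cDC1, against 41.9 ± 3.2 across L-cDC2 and 38.9 ± 7.09 across M-cDC2 (log2 difference −3.24 and −3.70, limma adjusted p = 2.62e-07 and 6.38e-08). Rin2, a GEF of Rab5, averaged 0.308 ± 0.112 FPKM across L-cDC1 and 0.255 ± 0.127 across M-cDC1, against 8.46 ± 1.48 across L-cDC2 and 9.41 ± 0.579 across M-cDC2 (−2.85 and −3.06). Both cDC1 means of Rin2 were under 1 FPKM, and the cDC2 libraries, also those outside each comparison, brought it past the filter. Dennd2d, a further DENN-domain protein, was higher in cDC1, with 14.1 ± 1.34 FPKM across L-cDC1 and 13.1 ± 1.32 across M-cDC1, against 3.12 ± 0.658 across L-cDC2 and 2.18 ± 0.226 across M-cDC2 (1.88 and 2.15). Among GAPs, Tbc1d4, which acts on Rab10 and Rab8a in insulin-responsive cells, averaged 47.1 ± 4.32 FPKM across L-cDC1 and 47.1 ± 4.73 across M-cDC1, against 119 ± 5.38 across L-cDC2 and 108 ± 3.63 across M-cDC2 (−1.32 and −1.19). The effector Myo5a, a myosin motor, averaged 3.93 ± 0.881 FPKM across L-cDC1 and 3.94 ± 0.81 across M-cDC1, against 12.6 ± 0.419 across L-cDC2 and 11.7 ± 0.971 across M-cDC2 (−1.48 and −1.38; SD, n = 3 each).

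The comparison of L with M asks whether cDCs of the same subset differ between the L and M populations. In cDC1, limma called 0 of 43 Rab genes, against 0.394% of all genes tested (0.354% higher and 0.0402% lower), with 4 at an unadjusted p under 0.05 beside 10.3% of all genes, and limma-voom on recovered reads also called 0, with 4 at an unadjusted p under 0.05 beside 9.99%. The differences ran from −0.84 to 0.75 on the log2(FPKM + 1) scale, and 41 of 43 were under 0.5 in size. For the most abundant cDC1 Rab genes, L-cDC1 minus M-cDC1 was 0.01 for Rab32 (95% interval −0.25 to 0.26) and −0.01 for Rab7b (−0.56 to 0.54). For Rab43 it was 0.38 (−0.01 to 0.77, limma adjusted p = 0.496), and the libraries given above overlapped.

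Rab13, which passed the filter only through M-cDC1, had 0.552, 0.818 and 0.977 FPKM in L-cDC1, while M-cDC1 had 2.03, 3.02 and 1.62. These values do not overlap and are a description. Among the other 42 genes the smallest limma adjusted p was 0.273. With Rab13, 5 Rab genes were lower and 0 higher without overlap in L-cDC1, against 5.63% and 8.28% of all genes. Beside these values, the summed FPKM of 8 B cell markers was 590 to 932 in L-cDC1 against 304 to 351 in M-cDC1, where Pax5 and Iglc2 were at 0 in all 3 libraries, and that of 9 T and NK cell markers was 11.1 to 18.1 in L-cDC1 against 0.137 to 0.326 in M-cDC1, where Klrb1c, Cd3g and Trac were at 0. The sum of 5 erythroid and platelet genes was also higher, at 26.1 to 42 in L-cDC1 against 17.1 to 21.4 in M-cDC1. That of 6 monocyte and macrophage markers was the reverse, at 577 to 642 in L-cDC1 against 703 to 736 in M-cDC1. The sums of 5 plasmacytoid DC markers overlapped. Of these, Ly6d averaged 28.3 FPKM in L-cDC1 against 0.0251 in M-cDC1, and Bst2 48 in L-cDC1 against 59.3 in M-cDC1. The part of all these markers in the L to M values was not tested.

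In cDC2, 2 of 43 Rab genes (4.65%) were called and both were lower in L-cDC2, against 1.83% of all genes called in either direction and 0.788% lower. Rab9, which returns cargo from late endosomes to the Golgi and lies on chromosome X (165240249 to 165262863), had 6.98, 7.06 and 6.39 FPKM in L-cDC2, against 12.6, 17.1 and 12.2 in M-cDC2. Every M-cDC2 library was above every L-cDC2 library, and the mean was 2.05 times higher in M-cDC2 (log2 difference of L-cDC2 minus M-cDC2 −0.92 ± 0.18 SE, limma adjusted p = 0.0127). Without L-cDC2 replicate 3 the adjusted p was 0.0508, and without M-cDC2 replicate 2, the highest, it was 0.075. In cDC1, Rab9 had 7.56, 8.08 and 5.76 FPKM in L-cDC1, while M-cDC1 had 9.37, 12.5 and 8.44, also without overlap, and was not called (−0.44 ± 0.18, adjusted p = 0.395).

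Rab32, the other called gene, had 35.2, 46.9 and 43.3 FPKM in L-cDC2, against 59.3, 65.6 and 60.2 in M-cDC2. The groups did not overlap, and the mean was 1.48 times higher in M-cDC2 (log2 difference of L-cDC2 minus M-cDC2 −0.56 ± 0.12 SE, limma adjusted p = 0.027). The call ended without L-cDC2 replicate 1 or 3 or any 1 of the 3 M-cDC2 replicates, with adjusted p of 0.057 to 0.117, with no filter on low values (0.0754) and with only the 6 cDC2 libraries in the fit (0.0939), and in all of these the direction stayed the same. Its relative Rab38 had 2.24, 3.93 and 6.32 FPKM in L-cDC2, against 6.91, 8.43 and 10.7 in M-cDC2, likewise without overlap, and was not called (−0.97 ± 0.31, limma adjusted p = 0.199).

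Marker genes of other cells moved with the same comparison. The summed FPKM of 8 B cell markers was 885 to 3336 in L-cDC2 against 349 to 375 in M-cDC2, where Pax5 was at 0, and that of 9 T and NK cell markers was 34.6 to 97.9 in L-cDC2 against 0.759 to 1.17 in M-cDC2, where Trbc2, Cd3g and Gzma were at 0. Of 5 plasmacytoid DC markers, summing to 74.8 to 112 in L-cDC2 against 40.4 to 44.9 in M-cDC2, Ly6d made the gap (mean 46 FPKM in L-cDC2 against 0.482 in M-cDC2), while Bst2 averaged 38.4 in L-cDC2 against 38.8 in M-cDC2. The summed FPKM of 6 monocyte and macrophage markers was the reverse, at 691 to 851 in L-cDC2 against 1438 to 1655 in M-cDC2. Lyz2 made most of that gap, at 182 to 351 FPKM in L-cDC2 against 804 to 1021 in M-cDC2. Csf1r, Adgre1 and Cd68 were also lower on average in L-cDC2 (Cd68 393 against 434), while the low Ly6c2 and Mertk were higher there. The part of all these markers of other cells in the Rab9 and Rab32 differences was not tested.

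The other genes did not pass the test, some with differences as large as those called. Rab37 had 14.5, 17 and 14.1 FPKM in L-cDC2, against 9.46, 10.9 and 10 in M-cDC2, without overlap (0.54 ± 0.20 SE, limma adjusted p = 0.286). Rab4a, which returns cargo quickly from early endosomes, had the largest positive difference (0.78), with 2.27, 1.15 and 1.16 FPKM in L-cDC2 against 0.743, 0.43 and 0.206 in M-cDC2, also without overlap. It reached 1 FPKM in the 3 L-cDC2 libraries and 1 other, so this is a description. Rab7b, low in cDC2, had 2.83, 1.33 and 1.04 FPKM in L-cDC2 against 5.65, 2.44 and 2.27 in M-cDC2 (−0.68 ± 0.26 SE, limma adjusted p = 0.318). Rab27a differed by −0.35 (adjusted p = 0.538), Rab43 by −0.12 (0.894) and Rab20 by −0.54 (0.677). Of 43 genes, 35 differed by under 0.5 in size, 8 had an unadjusted p under 0.05 beside 10.2% of all genes, and 4 were higher and 5 lower in L-cDC2 without overlap, against 9.96% and 6.92% of all genes. The 4 higher include Rab4a, which is only a description. The genes of the 4 lists of Rab regulators and effectors gave 0 calls in L-cDC1 against M-cDC1 and 0 in L-cDC2 against M-cDC2 by limma and by limma-voom. At an unadjusted p under 0.05 limma counted 6 GEFs, 1 GAP, 0 effectors and 1 gene of the escort list in cDC1, and 3, 1, 2 and 0 in cDC2, and limma-voom counted 6, 2, 0 and 0 in cDC1 and 3, 2, 4 and 0 in cDC2, where 10.3% and 10.2% of all genes by limma and 9.99% and 10.4% by limma-voom passed in cDC1 and in cDC2.

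**Figure D5:**
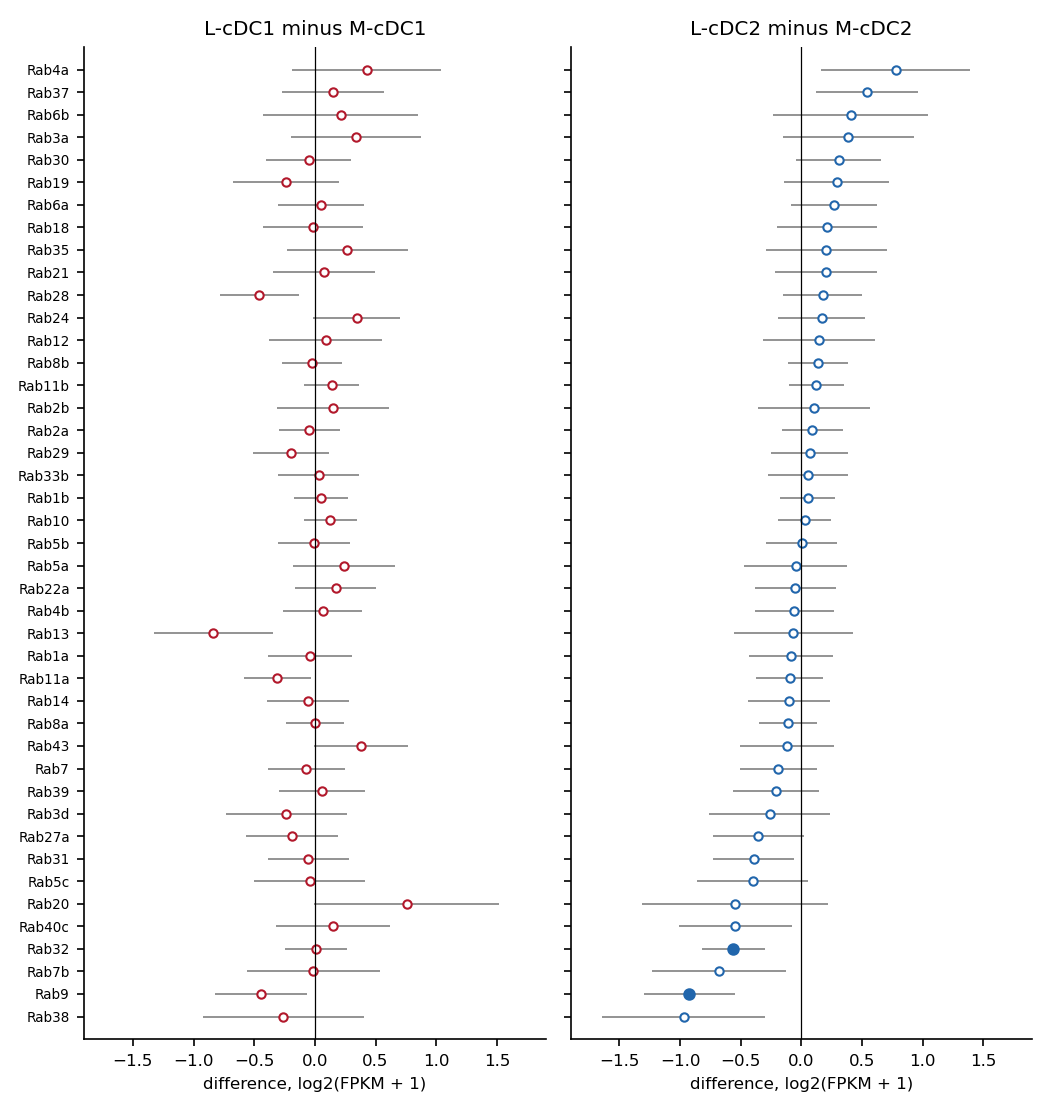
Difference of L minus M on the log2(FPKM + 1) scale in cDC1 (left) and cDC2 (right) for the 43 tested Rab genes, with 95% intervals; filled points are called by limma at an adjusted p under 0.05 over all genes. No point is filled in cDC1, and Rab9 (−0.92) and Rab32 (−0.56) are filled in cDC2.

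Whether the L to M difference depends on the subset was tested as an interaction. limma called 0 of 43 Rab genes, against 0.298% of all genes tested (0.193% positive and 0.105% negative), with 5 at an unadjusted p under 0.05 beside 8.53% of all genes, and limma-voom called 0 with 4 at an unadjusted p under 0.05 beside 8.32%. The smallest adjusted p was that of Rab32 (L minus M in cDC1 minus L minus M in cDC2, 0.57 ± 0.17 SE, adjusted p = 0.298). For Rab9 the interaction was 0.48 ± 0.25 (adjusted p = 0.632), so the call in cDC2 and its absence in cDC1 are not shown to differ. The highest interaction value was 1.3, that of Rab20.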

How the data were processed

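Spleen cDCs were profiled by bulk RNA sequencing in 12 libraries. The authors deposited 1 table of FPKM per gene, with gene lengths. Per the submitters' processing notes, the tools were featureCounts 2.0.1, STAR 2.7.9a and also DESeq2 1.20.0, cutadapt 3.7, Trimmomatic 0.39 and Trim Galore 0.6.7, with no role or order given, and the build named is GRCh38, a human one, while the gene symbols are of mouse. Per the labels' protocols the libraries were made with kits that do not mark strand.

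Entries with at least 1 FPKM in at least 3 libraries were tested (12434). limma 3.58.1 (limma-trend, R 4.3.3) was fitted to log2(FPKM + 1) over all 12 libraries with 4 group means, and p-values were adjusted by Benjamini-Hochberg over all entries tested, called under 0.05. FPKM times length gave whole reads for 100% of values within 0.01 of a read, which limma-voom, with library sizes scaled by median-of-ratios factors, took as an alternative. Totals of 15879864 to 24498235 reads limit the precision of low genes, and intervals come from the fit. Named are, per comparison, the called members with the 8 largest differences, the 5 highest by mean level, members called between L and M, and a fixed list of Rabs with known roles in dendritic cells. Other alternatives were another pseudocount (0.1), no filter, a filter on the mean, median-of-ratios scaling, quantile normalization, a replicate block, leaving out each library and fitting only the 6 libraries compared. The limma-trend and limma-voom fits were tested on simulated data. Positions in the table and those of RefSeq GRCm38.p6 were kept apart. The members, gene lists, role classes and markers were chosen with earlier results of these data known. Figures were drawn with matplotlib 3.10.9.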

Additional observations from a re-analysis of the deposited data

How the results depend on the processing

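Called Rab genes numbered 16 to 21 within L and 19 to 23 within M over all settings, and no called Rab gene changed direction in any. The counts within M include Rab13 wherever it was tested, although its call there is not read as a result. The 2 calls of L-cDC2 against M-cDC2 became 1 with no filter on low values and 1 with only the 6 libraries compared, and 0 to 2 when 1 library was left out, 0 without L-cDC2 replicate 3 or M-cDC2 replicate 2. Uncalled differences of L-cDC1 minus M-cDC1 near 0 changed sign: Rab32 was −0.0254 with limma-voom on recovered reads, −0.0288 with that and the replicate block, −0.025 after median-of-ratios scaling and −0.0759 to 0.096 without 1 library, and Rab7b was 0.0886 after quantile normalization and −0.056 to 0.0188 without 1 library. The cause was not tested. Of 1924 alternative values for 92 single-gene results, 1828 kept direction and call, 80 lost the call, 7 gained it and 9 changed sign. Rab7 was also called within M by limma-voom with the replicate block (0.34, adjusted p = 0.0361). The replicate block gave 0, 2, 20, 23 and 0 called Rab genes (L against M in cDC1, in cDC2, cDC1 against cDC2 within L, within M, interaction), against 0, 2, 20, 22 and 0 without it. Deviations of each gene from its group mean were correlated between libraries of different groups. For same-numbered libraries these correlations were −0.0101 to 0.156, 3 of 18 over 0.1. Among libraries of the other groups, the best match of 11 of 12 libraries had their own number, a hint from the data and not the design. limma-voom with the replicate block and the alternatives for the regulator lists were chosen after seeing the data. The planned quasi-likelihood test on recovered reads is not reported here, since count models were kept to deposited counts. Depth limits genes under 1 FPKM, such as Rab34.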
